A study of Homo sapiens with 56 samples.

Results

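Ribosome biogenesis genes encode the polymerase subunits, modification enzymes, helicases and assembly factors that make ribosomes. A list of 40 of them was followed on expression arrays of the established ovarian cancer lines PEO4 and PEO1. The members were found by the gene symbol in the array's annotation, with 1 probe set kept per gene, the one with the highest mean over all arrays. This gave 33 members among 11963 genes measured. NOP56, DKC1 and BOP1 occurred only on probe sets that carry several symbols and were not used, and DDX18, EBNA1BP2, GNL3 and LYAR were not in the annotation used here. The members' mean log2 values over all arrays ran from 7.45 for POLR3G to 13.48 for NPM1. Values of different probe sets depend on the probes and do not rank transcripts by abundance.

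Each line gave 7 groups of 4 arrays, 56 arrays in all. Cells of every group had first spent 3 days without hormone, in medium free of phenol red with charcoal-stripped serum. The groups were then exposed for 3 h to 1 nM estradiol (E2), to 1 uM of the pure antagonist ICI, to ICI with E2 (ICI+E2), to 1 uM 4-hydroxytamoxifen (4OHT), to 4OHT with E2 (4OHT+E2) or to the ethanol vehicle, and a last group was taken at 0 h. The titles of the PEO4 arrays name 4OHT as Tam, where those of PEO1 do not, and the series' design text uses Tam for 4-hydroxytamoxifen. E2 is the natural ligand of the estrogen receptor. ICI, also named fulvestrant, is a steroidal antagonist that lowers the receptor protein, and 4OHT is a nonsteroidal ligand that can act as antagonist or agonist depending on the cell. The labels do not say whether the arrays of a group came from separate cultures, so the p-values measure the spread between these arrays.

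Ribosomes are built in the nucleolus. RNA polymerase I makes the long precursor of most ribosomal RNA and RNA polymerase III makes the 5S RNA. Small nucleolar ribonucleoproteins (snoRNPs) guide the chemical modification of the precursor, and separate sets of factors then cut and fold the parts that become the small (40S) and large (60S) subunits. MYC, a transcription factor that pairs with MAX on E-box sequences, is known to activate many of these genes, and MYC is itself a known early target of the estrogen receptor in breast cancer cells.

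Values are log2 expression values on RMA's scale, so a difference of 1 is a doubling, and arrays are scaled to one another (here taken to be within each line, which the labels do not state). They therefore give a gene's level relative to the other genes, and fewer cells or less RNA per cell could not be told apart. Of 9 carcinoma line markers, 8 lay above the all-gene median in PEO4 and 8 in PEO1, among them ESR1, the estrogen receptor gene, at 11.65 in PEO4 and 11.29 in PEO1. SOX17 was near the bottom of the scale, at 4.63 in PEO4 and 3.92 in PEO1. Of the fibroblast, leukocyte and endothelium markers, only COL1A1 in PEO1 exceeded the median of its line. A measure of RNA quality, the signal of the ACTB control at its 3′ end minus that at its 5′ end, ranged from -0.25 to 0.14 (log2) in PEO1 and from 0.24 to 3.41 in PEO4. In PEO4 its extremes were ICI replicate 1 and 0 h replicate 4, and both arrays were left out in an alternative fit. The lowest correlation between arrays of a group was 0.9923, in PEO4 ICI cells.

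Each line was fitted with limma over its 28 arrays. A gene was called, and is said to have risen or fallen, where its p adjusted by the Benjamini-Hochberg method across the 11963 genes was under 0.05. Every adjusted p below comes from that limma fit, every ± beside a difference is its standard error, and every group has 4 arrays.

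Estradiol raised ribosome biogenesis genes in both lines. In PEO4, 10 of 33 members rose with E2 against vehicle and 0 fell, while 1.66% of all genes rose and 0.46% fell. The median of the 33 log2 differences was 0.17, against 0 for all genes, and 29 of 33 were above 0, against 51.3% of all genes. In PEO1, 6 of 33 rose and 0 fell, while 1.56% of all genes rose and 0.527% fell. There the members' median was 0.11, against -0.01 for all genes, and 32 of 33 were above 0. The effects were small, with the largest member difference in PEO4 at 0.43, a 1.35-fold change, and the largest in PEO1 at 0.21, a 1.16-fold change.

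MYC moved more than any member in PEO4. Its log2 level was 12.03, 12.13, 12.20 and 12.29 in PEO4 E2 cells, against 11.16, 11.18, 11.20 and 11.25 in PEO4 vehicle cells. All E2 arrays lay above all vehicle arrays, and the difference was 0.96 ± 0.10 (adjusted p = 1.55e-07). In PEO1 MYC was at 12.39, 12.48, 12.50 and 12.52 in E2 cells, against 12.20, 12.22, 12.25 and 12.26 in vehicle cells. These groups did not overlap either, but the difference was smaller, at 0.23 ± 0.04 (adjusted p = 0.00058).

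**Figure D1:**
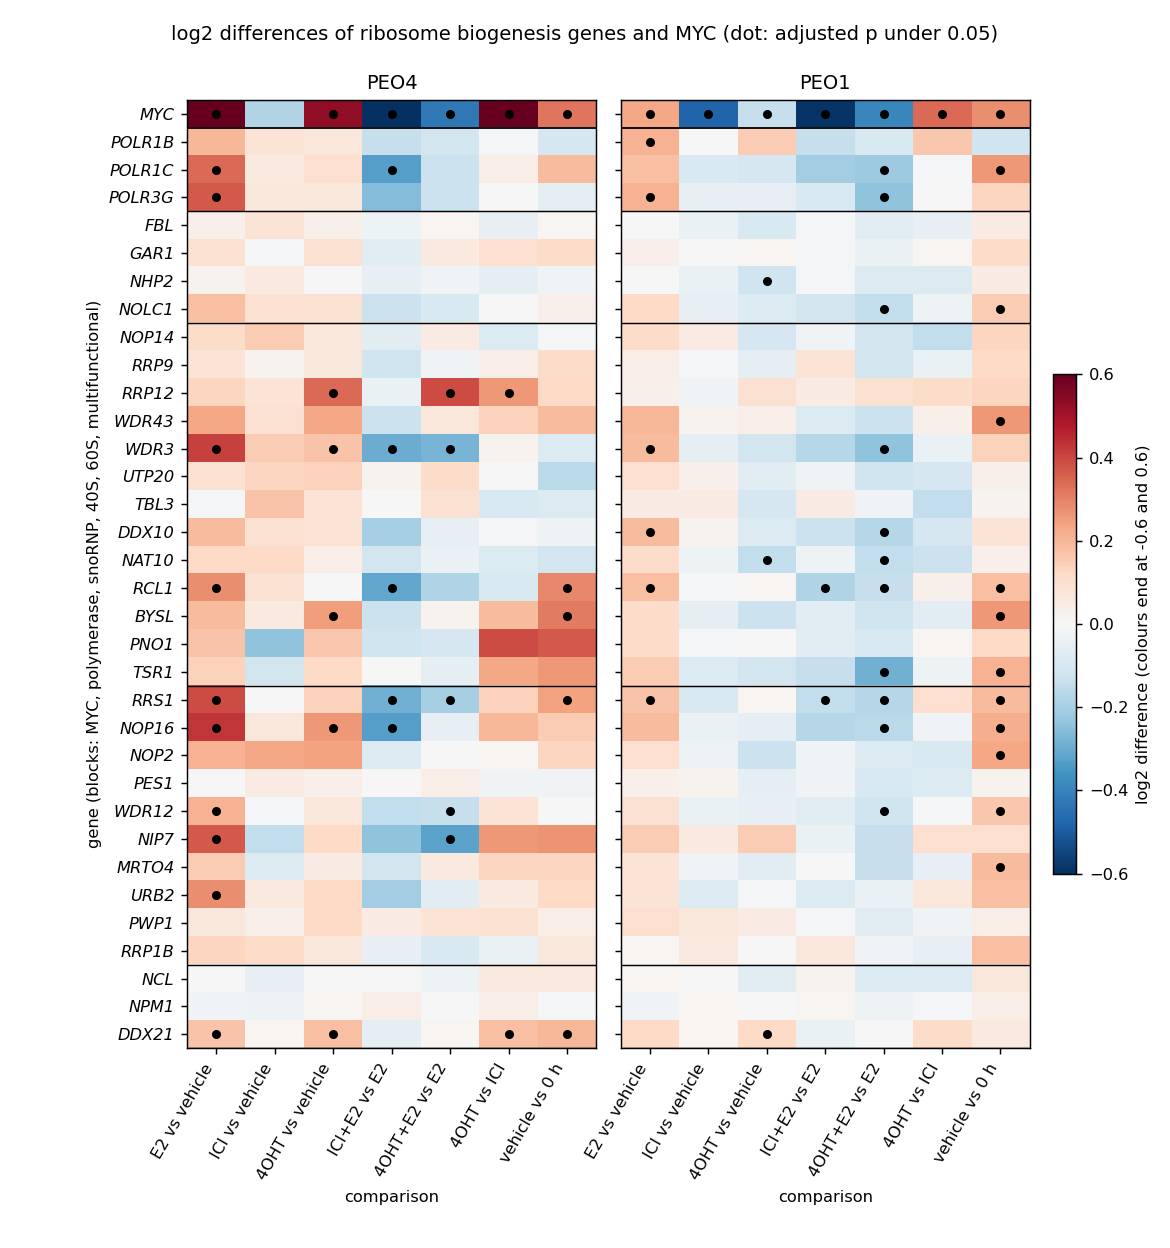
Colours give the log2 difference of MYC and the 33 measured members (rows, in blocks by role) in 7 comparisons (columns) in PEO4 and PEO1, and dots mark an adjusted p under 0.05. The E2 columns are red for 29 of 33 members in PEO4 and 32 of 33 in PEO1, while the ICI against vehicle columns hold no dot on a member in either line.

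Among the large-subunit factors, 5 of 10 rose with E2 in PEO4 and 1 of 10 in PEO1, with median differences of 0.21 in PEO4 and 0.09 in PEO1. RRS1, which helps bring the 5S RNA into the young large subunit, was at 12.32, 12.34, 12.35 and 12.39 in PEO4 E2 cells, against 11.87, 11.95, 12 and 12.01 in PEO4 vehicle cells. The groups were well apart, and the difference was 0.39 ± 0.04 (adjusted p = 1.12e-06). In PEO1 RRS1 was at 11.73, 11.80, 11.83 and 11.84 in E2 cells, against 11.59, 11.60, 11.65 and 11.67 in vehicle cells. Again no array overlapped, with a difference of 0.17 ± 0.03 (adjusted p = 0.00477).

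NOP16, a nucleolar protein of large-subunit assembly, was at 11.66, 11.66, 11.71 and 11.81 in PEO4 E2 cells, against 11.21, 11.29, 11.30 and 11.31 in PEO4 vehicle cells. It had the largest E2 difference of any member, at 0.43 ± 0.05 (adjusted p = 5.36e-06). That value rests on 1 of its 4 probe sets: the 3 others gave differences from -0.18 to 0.53, 1 of them called, and the mean of all probe sets was not called. In PEO1 NOP16 was at 11.80, 11.81, 11.82 and 11.84 in E2 cells, against 11.53, 11.66, 11.66 and 11.68 in vehicle cells. These groups did not overlap, yet the difference of 0.19 ± 0.05 missed the threshold (adjusted p = 0.0575). WDR12, a partner of PES1 and BOP1 in the PeBoW complex, rose by 0.21 ± 0.04 in PEO4 (adjusted p = 0.00307). NIP7, a pre-ribosome factor, rose by 0.37 ± 0.09 there (adjusted p = 0.0196), and URB2 rose by 0.28 ± 0.07 (adjusted p = 0.0235).

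Of the 13 small-subunit factors, 2 rose in PEO4 and 3 in PEO1. WDR3, a protein of the small-subunit processome, was at 10.51, 10.52, 10.52 and 10.54 in PEO4 E2 cells, against 10.04, 10.12, 10.12 and 10.17 in PEO4 vehicle cells. Its E2 arrays were nearly identical to one another and far above vehicle, with a difference of 0.41 ± 0.05 (adjusted p = 2.25e-06). In PEO1 it was at 10.35, 10.42, 10.46 and 10.53 in E2 cells, against 10.20, 10.22, 10.24 and 10.35 in vehicle cells, and the groups met at 10.35. The PEO1 difference was 0.19 ± 0.05 (adjusted p = 0.0364). RCL1, whose yeast relative acts in processing of the small-subunit RNA, was at 9.32, 9.35, 9.35 and 9.40 in PEO4 E2 cells, against 9.04, 9.08, 9.10 and 9.10 in PEO4 vehicle cells. The RCL1 difference was 0.28 ± 0.06 in PEO4 (adjusted p = 0.0102) and 0.18 ± 0.04 in PEO1 (adjusted p = 0.00671). DDX10, an RNA helicase, rose in PEO1 by 0.19 ± 0.05 (adjusted p = 0.0371).

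The RNA polymerase subunits had the highest median E2 difference of the role groups, 0.34 in PEO4 and 0.21 in PEO1, over only 3 genes. Among 24 other subunits and factors of polymerases I and III, the median was 0.06 in PEO4 and 0.05 in PEO1. POLR1C, shared by polymerases I and III, rose by 0.34 ± 0.07 in PEO4 (adjusted p = 0.00666). POLR1B, the second-largest subunit of polymerase I, was at 8.69, 8.70, 8.70 and 8.82 in PEO4 E2 cells, against 8.45, 8.53, 8.57 and 8.57 in PEO4 vehicle cells, and its difference of 0.20 ± 0.06 was not called (adjusted p = 0.154). In PEO1 POLR1B was at 8.39, 8.45, 8.46 and 8.49 in E2 cells, against 8.11, 8.22, 8.30 and 8.33 in vehicle cells, and the difference of 0.21 ± 0.06 was called (adjusted p = 0.0438). Its probe set is of a kind that may also bind other transcripts. POLR3G, a subunit of polymerase III, rose by 0.21 ± 0.05 in PEO1 (adjusted p = 0.0213).

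NPM1, NCL and FBL, well-known nucleolar proteins, did not pass the test with E2 in either line. NPM1 (nucleophosmin) was at 13.48, 13.55, 13.57 and 13.59 in PEO4 E2 cells, against 13.54, 13.55, 13.55 and 13.62 in PEO4 vehicle cells. These values overlap throughout, and the 95% interval of the difference ran from -0.10 to 0.06 in PEO4 and from -0.11 to 0.08 in PEO1. Near-identical gene copies make the level of NPM1 itself uncertain. For NCL (nucleolin) the interval ran from -0.09 to 0.09 in PEO4 and from -0.06 to 0.08 in PEO1. For FBL (fibrillarin), the methyltransferase of box C/D snoRNPs, it ran from -0.06 to 0.13 in PEO4 and from -0.08 to 0.09 in PEO1. DDX21, a helicase that acts in both transcription and processing of ribosomal RNA, was called in PEO4 at 0.17 ± 0.05 (adjusted p = 0.0478) and is named here after its values were seen, but the call was lost in 10 of 17 alternatives, among them the removal of any 1 of the 8 E2 and vehicle arrays. NOLC1, a snoRNP chaperone, had a difference of similar size that was not called, 0.18 ± 0.06 in PEO4 (adjusted p = 0.113) and 0.12 ± 0.04 in PEO1 (adjusted p = 0.143). None of the 4 snoRNP proteins was called with E2 in either line.

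The call was shared by 4 members, POLR3G, RCL1, RRS1 and WDR3, which are 40% of the 10 called in PEO4 and 66.7% of the 6 called in PEO1. POLR3G in PEO4 is named here after its values were seen, and its second probe set gave a difference of 0.01 there. The E2 differences of the 33 members in PEO4 and PEO1, which share no array, had a Pearson correlation of 0.79 and a Spearman correlation of 0.79, given as a description across genes that are not independent. Of the 33, 25 had the larger difference in PEO4, against 55.3% of all genes. A test of the difference between lines called RRS1, whose E2 response was 0.22 ± 0.05 larger in PEO4 than in PEO1 (adjusted p = 0.0328), while 0.284% of all genes were called larger and 0.209% smaller in PEO4. MYC's response was 0.73 ± 0.11 larger in PEO4 (adjusted p = 3.55e-05).

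The PEO1 count was 0 when only the E2 and vehicle arrays were fitted, which leaves fewer arrays for the variance, and it was 2 without E2 replicate B, 2 without E2 replicate C, 2 without vehicle replicate B and 3 without vehicle replicate D. The PEO4 count was 6 without vehicle replicate 1, and RRS1, WDR3, RCL1 and POLR1C were called in PEO4 under every alternative tried. The call of RRS1 between lines was lost without any of PEO4 E2 replicates 2, 3 or 4, PEO4 vehicle replicates 1 or 4, PEO1 E2 replicates C or D, or PEO1 vehicle replicates A or C, and the count was then 0. ACTB 3′ minus 5′ was 0.68 to 1.02 in PEO4 E2 cells and 0.24 to 0.57 in PEO4 vehicle cells, without overlap. The same difference for the GAPDH control was 0.0 to 0.06 in E2 cells and 0.03 to 0.04 in vehicle cells. GAPDH thus showed no such gap. With the ACTB measure as a covariate, 15 members rose.

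**Figure D2:**
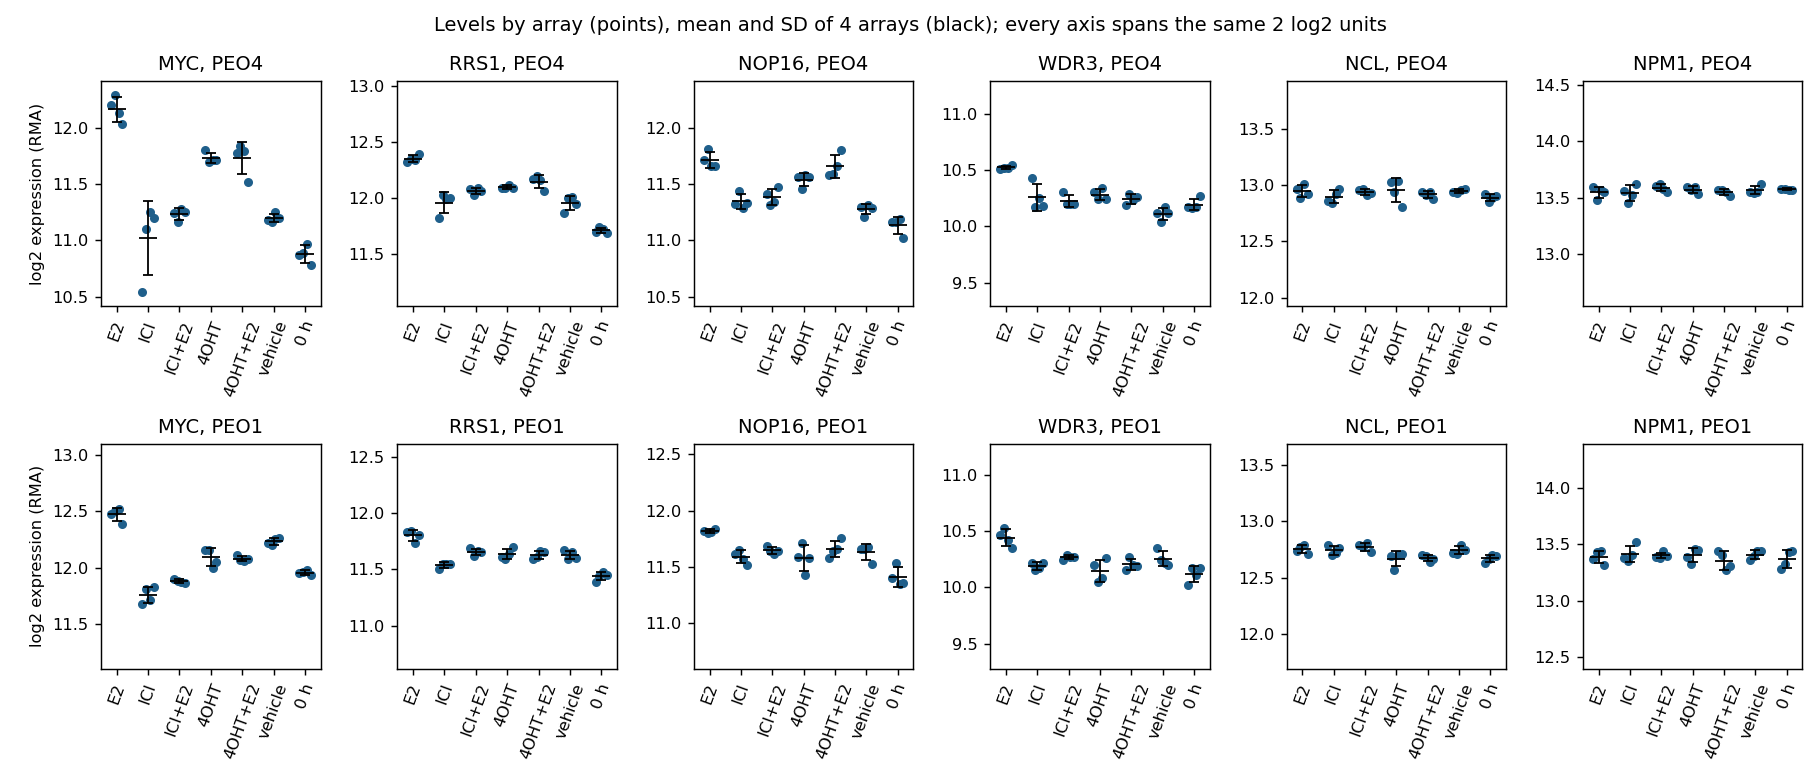
Log2 levels of MYC, RRS1, NOP16, WDR3, NCL and NPM1 in every array (points), with the mean and SD of 4 arrays in black, by group in PEO4 (top) and PEO1 (bottom). RRS1, NOP16, WDR3 and MYC stand highest in E2 cells of both lines, while NCL and NPM1 stay within a narrow band in every group.

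The promoter sequences of the members, from RefSeq on GRCh38.p14, were searched from 250 bases before to 50 bases after each annotated start. The E-box CACGTG, the same on both strands, occurred in 15 of the 27 members that have an entry, or 55.6%, against 8.77% of 27305 genes. In 14 of the 15 members it lay within 50 bases of the start, a distance not counted for other genes. The palindromic estrogen response element, GGTCA and TGACC with 3 bases between them, was the same on both strands, did not overlap the E-box and occurred in 0 of the 27 members and in 20 of all genes, or 0.0732%. NOLC1, POLR3G, RRP12, RRP1B, RRS1 and URB2 had no entry. A gene with several starts was counted once if any of them held the motif. The 27305 genes are all those with an entry, on the array or not, and were not matched to the members in expression level.

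The windows below run from 50 bases before to 30 bases after the start, 5′ to 3′ on the gene's strand, with the E-box in capitals. The first 6 show how close to the start the E-box lies. RCL1, WDR43, MRTO4 and NAT10 were called in some comparison, while FBL and PES1 were never called. Only RCL1 among these was called with E2, higher in both lines. WDR43 and MRTO4 were called only in PEO1, higher in vehicle than in 0 h cells. NAT10 was called only in PEO1, lower with 4OHT than with vehicle and lower with 4OHT+E2 than with E2. WDR3 and NOP16, which had the largest E2 differences in PEO4, hold no CACGTG and are shown beside these 6. The regions are chr9:4792894-4792973 plus strand for RCL1, chr2:28894617-28894696 plus strand for WDR43, chr1:19251755-19251834 plus strand for MRTO4, chr11:34105579-34105658 plus strand for NAT10, chr19:39846350-39846429 minus strand for FBL, chr22:30591881-30591960 minus strand for PES1, chr1:117929689-117929768 plus strand for WDR3 and chr5:176388569-176388648 minus strand for NOP16.
RCL1: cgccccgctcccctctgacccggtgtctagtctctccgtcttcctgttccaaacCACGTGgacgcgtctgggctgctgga
WDR43: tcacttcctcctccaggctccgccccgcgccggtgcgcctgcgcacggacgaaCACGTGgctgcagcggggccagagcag
MRTO4: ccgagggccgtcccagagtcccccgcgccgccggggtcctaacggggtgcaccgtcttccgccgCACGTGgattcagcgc
NAT10: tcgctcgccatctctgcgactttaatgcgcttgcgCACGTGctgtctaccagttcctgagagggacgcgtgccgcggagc
FBL: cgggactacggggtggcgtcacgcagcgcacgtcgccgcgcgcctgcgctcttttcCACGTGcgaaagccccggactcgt
PES1: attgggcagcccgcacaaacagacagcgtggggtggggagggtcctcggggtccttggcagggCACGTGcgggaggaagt
WDR3: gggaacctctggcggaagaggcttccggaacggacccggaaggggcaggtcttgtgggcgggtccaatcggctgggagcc
NOP16: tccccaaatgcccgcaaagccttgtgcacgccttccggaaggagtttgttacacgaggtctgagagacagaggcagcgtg

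Members with and without an E-box in this window were set side by side. With E2 in PEO4, 2 of 15 members with the E-box rose and 5 of 12 without it, with median differences of 0.12 with and 0.20 without. In PEO1 1 of 15 with the E-box rose and 3 of 12 without it, with medians of 0.10 with and 0.15 without. These are descriptions of counts, with no test between them.

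The antagonists alone were then compared with vehicle. ICI called 0 of 33 members in either line. In PEO1 the median member difference was -0.01, against -0.02 for all genes, and 0.134% of all genes were called. The smallest adjusted p among members was 0.904, for RRS1 at -0.09 ± 0.03, and 1 member reached an unadjusted p under 0.05. PWP1 came next, at 0.07 ± 0.04 (adjusted p = 1). MYC fell in those cells. It was at 11.68, 11.71, 11.81 and 11.83 in PEO1 ICI cells, against 12.20, 12.22, 12.25 and 12.26 in PEO1 vehicle cells, a difference of -0.48 ± 0.04 (adjusted p = 5.77e-08). NOP16 was at 11.52, 11.57, 11.62 and 11.65 in PEO1 ICI cells, inside the spread of vehicle, with a 95% interval from -0.15 to 0.07.

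In PEO4 the median member difference with ICI was 0.06, against 0.03 for all genes, and 0.159% of all genes were called. The smallest member p was that of WDR3 at 0.15 ± 0.05 (adjusted p = 0.137), followed by NOP2, an RNA methyltransferase, at 0.23 ± 0.08 (adjusted p = 0.149), and 4 members reached an unadjusted p under 0.05. MYC was at 10.54, 11.10, 11.20 and 11.25 in PEO4 ICI cells, against 11.16 to 11.25 in vehicle cells, and the difference of -0.18 ± 0.10 was not called (adjusted p = 0.347). The lowest of these arrays is replicate 1, the one of low RNA quality. Without both arrays of low RNA quality the members' median was 0.03 and 0 were called. Other limma counts for ICI in PEO4 were 2 without ICI replicate 4 and 4 with array weights. The difference between the lines in the ICI response was called for 0 members, against 0.1% of all genes, with 3 members at an unadjusted p under 0.05 and 1 called with array weights, and for MYC it was 0.30 ± 0.11 (adjusted p = 0.351).

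4OHT raised some of these genes in PEO4 and mostly did not in PEO1. In PEO4, 5 of 33 members rose and 0 fell with 4OHT against vehicle, while 2.78% of all genes rose and 2.75% fell. The members' median was 0.09, with 31 of 33 above 0, against 49.1% of all genes. MYC rose too, at 11.70, 11.71, 11.71 and 11.80 in PEO4 4OHT cells against 11.16 to 11.25 in vehicle cells (0.53 ± 0.10, adjusted p = 0.0011). In PEO1, 1 member rose and 2 fell, while 1.92% of all genes rose and 4.83% fell. The members' median was -0.06, against -0.03 for all genes, and 10 of 33 were above 0, against 36.6% of all genes. With dim genes left out the all-gene median was -0.05, with 28.6% above 0, so the members' shift was near that of other genes. MYC fell by 0.14 ± 0.04 on the log2 scale (adjusted p = 0.0316). That MYC call was lost in 7 of 16 alternatives, among them without vehicle replicate A, C or D or 4OHT replicate C or D.

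The members that rose in PEO4 were led by RRP12, a protein of small-subunit export, at 8.83, 8.87, 8.90 and 8.91 in 4OHT cells, against 8.48, 8.48, 8.57 and 8.60 in vehicle cells. The 4OHT arrays all lay above vehicle, by 0.34 ± 0.07 (adjusted p = 0.00216). Its 2 other probe sets gave differences of -0.18 and 0.14, neither called, and the mean of all its probe sets was not called. NOP16 rose by 0.26 ± 0.05 (adjusted p = 0.00332), also not called in the mean of its probe sets. BYSL, a factor of late small-subunit maturation, was at 10.30, 10.31, 10.37 and 10.38 in 4OHT cells, against 10.06, 10.09, 10.11 and 10.12 in vehicle cells. Its difference of 0.25 ± 0.06 (adjusted p = 0.0118) was called under every alternative. DDX21 rose by 0.18 ± 0.05 (adjusted p = 0.0157) and WDR3 by 0.17 ± 0.05 (adjusted p = 0.0416). RRS1 was at 12.09, 12.09, 12.09 and 12.12 in 4OHT cells, above every vehicle array, with a difference of 0.14 ± 0.04 that was not called (adjusted p = 0.0631).

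In PEO1 DDX21 rose by 0.12 ± 0.04 (adjusted p = 0.0381), NAT10, which acetylates ribosomal RNA, fell by 0.15 ± 0.05 on the log2 scale (adjusted p = 0.0429) and NHP2, a box H/ACA snoRNP protein, fell by 0.12 ± 0.04 (adjusted p = 0.0492). BYSL was at 8.77, 8.99, 9.01 and 9.01 in PEO1 4OHT cells, against 8.99, 9.06, 9.11 and 9.14 in vehicle cells, and was not called (-0.13 ± 0.06, adjusted p = 0.186).

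The difference between lines in the 4OHT response was called for 4 members, all larger in PEO4, while 0.97% of all genes were called larger and 0.293% smaller in PEO4. These were BYSL at 0.38 ± 0.08 (adjusted p = 0.0104), NOP16 at 0.32 ± 0.07 (adjusted p = 0.0152), WDR3 at 0.28 ± 0.07 (adjusted p = 0.0229) and NOP2 at 0.36 ± 0.09 (adjusted p = 0.031). The median over all 33 was 0.13, against 0.03 for all genes. Of the 33 responses 30 were larger in PEO4, as were 59.5% of those of all genes. With dim genes left out, the all-gene median was 0.04 and the share 66.5%. For MYC it was 0.67 ± 0.11 (adjusted p = 0.00012). Across the members the 4OHT responses of PEO4 and PEO1 had a Pearson correlation of 0.21.

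The 3 PEO1 calls with 4OHT were 0 without 4OHT replicate D, 0 without any of vehicle replicates A, B or C, 1 without 4OHT replicate B or C or vehicle replicate D, and 0 when the 2 groups were fitted alone. The PEO4 count was 3 without vehicle replicate 4 and 9 without the 2 arrays of low RNA quality. The count between lines was 1 without PEO1 4OHT replicate C, and 2 without PEO1 4OHT replicate B, PEO4 4OHT replicate 3 or PEO4 vehicle replicate 2, and BYSL was called in each.

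**Figure D3:**
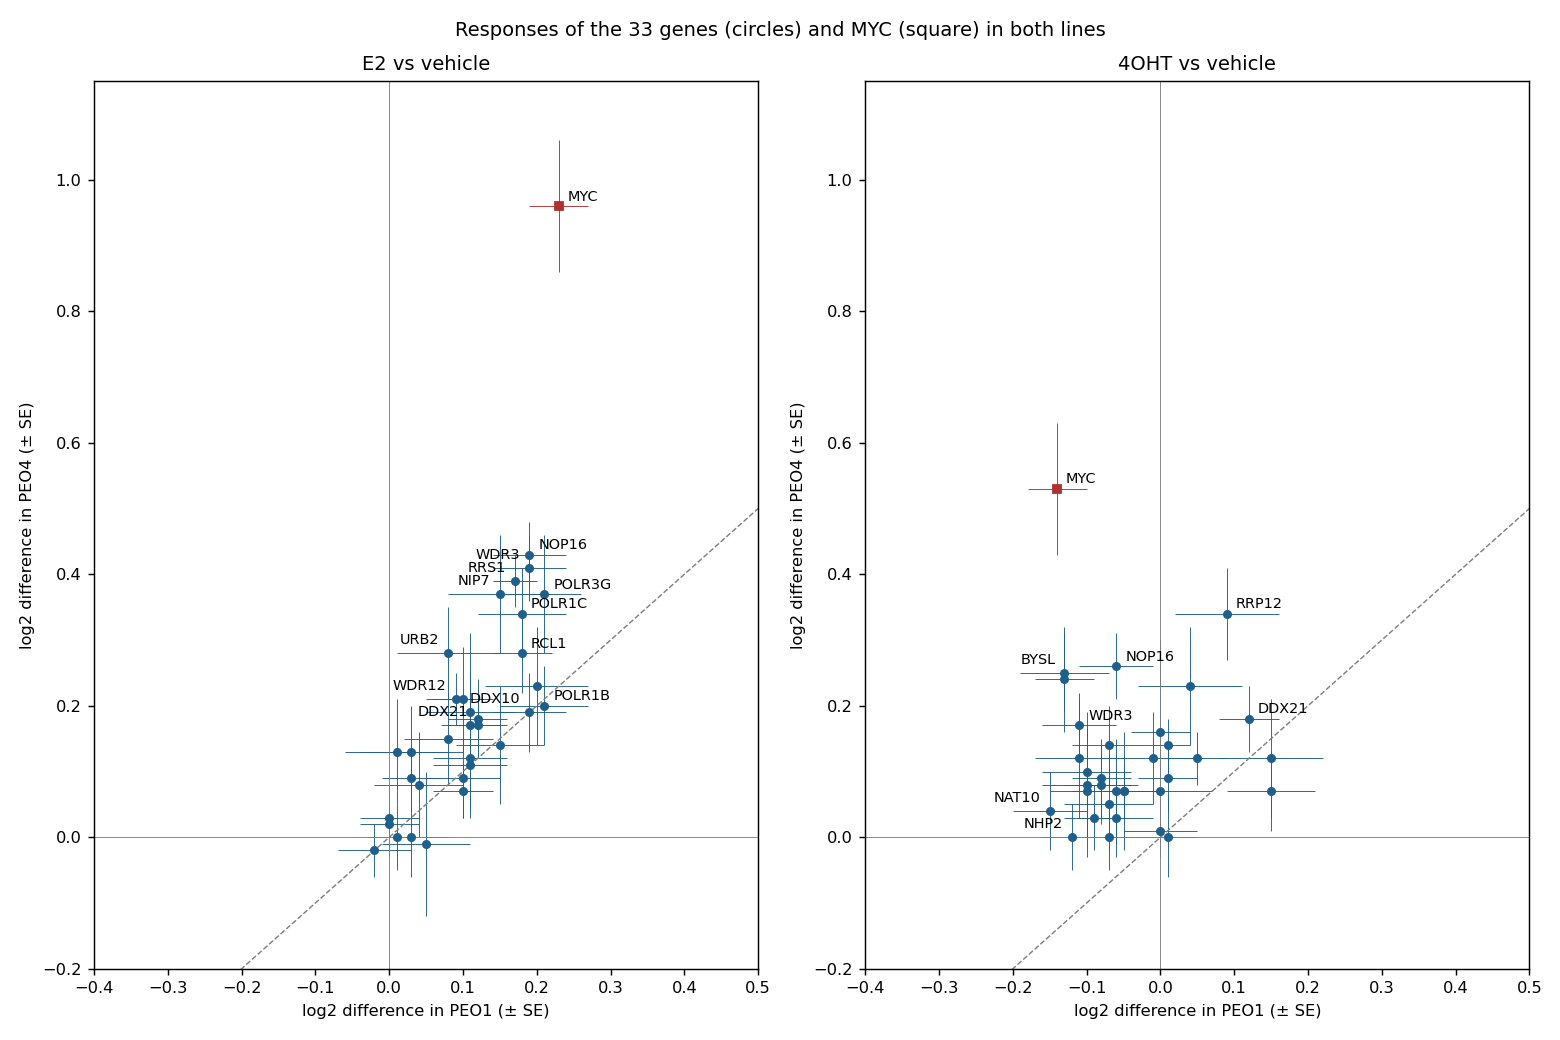
Log2 differences against vehicle in PEO4 (vertical) and PEO1 (horizontal) for the 33 members (circles) and MYC (square), with standard errors, for E2 (left) and 4OHT (right). Dashes mark equal responses, names mark MYC and members called in either line. With E2 25 of 33 members have the larger value in PEO4, against 55.3% of all genes. With 4OHT 30 of 33 do, against 59.5% of all genes.

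Both antagonists were also added together with E2 and compared with E2 alone. These comparisons share the E2 arrays with those of E2 against vehicle, so their values are given side by side and not as support for one another. In PEO4, ICI+E2 lowered 5 of 33 members against E2 and raised 0, while 1.47% of all genes fell and 0.61% rose. RRS1 was at 12.03, 12.06, 12.08 and 12.09 in PEO4 ICI+E2 cells, against 12.32 to 12.39 in E2 cells, a difference of -0.29 ± 0.04 (adjusted p = 0.000191). WDR3 fell by 0.30 ± 0.05 on the log2 scale (adjusted p = 0.000402), NOP16 by 0.33 ± 0.05 (adjusted p = 0.000411), RCL1 by 0.31 ± 0.06 (adjusted p = 0.00394) and POLR1C by 0.33 ± 0.07 (adjusted p = 0.00951). MYC was at 11.16, 11.24, 11.25 and 11.28 in ICI+E2 cells, far below the 12.03 to 12.29 of E2 cells (-0.93 ± 0.10, adjusted p = 3.82e-07).

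In PEO1, ICI+E2 lowered RCL1 by 0.18 ± 0.04 on the log2 scale (adjusted p = 0.00641) and RRS1 by 0.15 ± 0.03 (adjusted p = 0.0174). These were the 2 of 33 that fell, against 1.53% of all genes, and 0 rose, against 0.97%. MYC was at 11.86, 11.87, 11.88 and 11.90 in PEO1 ICI+E2 cells, against 12.39 to 12.52 in E2 cells (-0.59 ± 0.04, adjusted p = 5.6e-11). The count was 1 without E2 replicate B or without ICI+E2 replicate B or D, and 5 with array weights.

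A comparison of ICI+E2 with vehicle was added after the values were seen. It called 0 of 33 members in PEO4 and 0 in PEO1, while 0.00836% of all genes were called in PEO4 and 0.0418% in PEO1. In PEO4 4 members reached an unadjusted p under 0.05 and in PEO1 3 did, and array weights gave 1 call in PEO4. The members' median was 0.05 in each line. MYC in PEO1 was 0.36 ± 0.04 below vehicle on the log2 scale in ICI+E2 cells (adjusted p = 2.5e-05). In the same comparison 29 of 33 members were above 0, against 47.2% of all genes, or 57.7% with dim genes left out.

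4OHT+E2 against E2 gave the most lowered members of any comparison in PEO1: 11 of 33 fell and 0 rose, while 8.48% of all genes fell and 4.26% rose. The members' median was -0.11, against -0.01 for all genes. Of the 33, 32 were below 0 and 1 above, against 45.3% of all genes above 0. With dim genes left out, the all-gene median was -0.04 and 33.6% were above 0. TSR1, a factor of late small-subunit assembly, fell by 0.29 ± 0.06 on the log2 scale (adjusted p = 0.000881), WDR3 by 0.24 ± 0.05 (adjusted p = 0.00158) and RRS1 by 0.17 ± 0.03 (adjusted p = 0.00188). RRS1 was at 11.59, 11.61, 11.65 and 11.66 in PEO1 4OHT+E2 cells, against 11.73 to 11.84 in E2 cells, with no overlap. POLR3G fell by 0.24 ± 0.05 (adjusted p = 0.00229), POLR1C by 0.22 ± 0.06 (adjusted p = 0.0177) and DDX10 by 0.17 ± 0.05 (adjusted p = 0.0234). NOLC1 fell by 0.15 ± 0.04 (adjusted p = 0.00924), RCL1 by 0.14 ± 0.04 (adjusted p = 0.0187) and NOP16 by 0.16 ± 0.05 (adjusted p = 0.0437). MYC was at 12.06, 12.07, 12.08 and 12.11 in 4OHT+E2 cells, also below every E2 array (-0.39 ± 0.04, adjusted p = 1.01e-07).

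In PEO4 4OHT+E2 lowered 4 of 33 members against E2 and raised 1, while 2.16% of all genes fell and 3.58% rose. WDR3 fell by 0.28 ± 0.05 on the log2 scale (adjusted p = 0.000312), RRS1 by 0.20 ± 0.04 (adjusted p = 0.00422), NIP7 by 0.32 ± 0.09 (adjusted p = 0.0271) and WDR12 by 0.14 ± 0.04 (adjusted p = 0.0344). RRP12 went the other way. It was at 8.98, 8.98, 9.12 and 9.13 in PEO4 4OHT+E2 cells, against 8.55, 8.60, 8.64 and 8.85 in E2 cells (0.39 ± 0.07, adjusted p = 0.000263), but its 2 other probe sets gave -0.13 and -0.03 and the mean of its probe sets was not called. NOP16 stayed at 11.58, 11.59, 11.66 and 11.80 in 4OHT+E2 cells, overlapping E2 cells at 11.66 to 11.81, with a 95% interval from -0.16 to 0.06. MYC was at 11.52, 11.78, 11.79 and 11.84 in 4OHT+E2 cells, below all E2 arrays (-0.43 ± 0.10, adjusted p = 0.00544). ACTB 3′ minus 5′ was 0.48 to 1.74 in PEO4 4OHT+E2 cells and 0.68 to 1.02 in PEO4 E2 cells. The array at 1.74, replicate 4, held the lowest MYC value and the lowest NIP7 value, 10.14 against 10.52 to 10.53 in the other 4OHT+E2 arrays. Without it NIP7 was not called, at -0.23, while MYC was, at -0.36.

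The PEO1 count for 4OHT+E2 was 5 without 4OHT+E2 replicate A or B, 6 without E2 replicate B or C, and 3 with the 2 groups fitted alone. TSR1, WDR3 and POLR3G were called under every alternative that tested them. The PEO4 count was 3 without 4OHT+E2 replicate 4, the call of WDR12 was lost without E2 replicate 2, 3 or 4 or 4OHT+E2 replicate 1, 3 or 4, and WDR3 and RRS1 were called under every alternative.

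The 2 antagonists were compared directly at the matched dose of 1 uM and time of 3 h, with adjusted p over all genes in each of 4 contrasts. They differ in structure, ICI being a steroid with a long side chain and 4OHT a triphenylethylene. In PEO4 2 of 33 members were higher with 4OHT than with ICI and 0 lower, while 1.25% of all genes were higher and 1.08% lower. RRP12 was higher by 0.26 ± 0.07 (adjusted p = 0.0337) and DDX21 by 0.18 ± 0.05 (adjusted p = 0.0348). The 2 other probe sets of RRP12 gave -0.0 and 0.17, neither called. The call was lost in 7 of 17 alternatives for RRP12 and in 9 of 17 for DDX21. DDX21 was at 12.73, 12.75, 12.76 and 12.77 in PEO4 4OHT cells, against 12.48, 12.55, 12.63 and 12.63 in ICI cells. NOP16 was not called (0.20, 95% interval from 0.08 to 0.31, adjusted p = 0.0514), nor was RRS1 (0.14, from 0.05 to 0.23, adjusted p = 0.11). MYC was 0.71 ± 0.10 higher with 4OHT (adjusted p = 3.83e-05).

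In PEO1 0 of 33 members were called between 4OHT and ICI, while 3.74% of all genes were, and 9 members reached an unadjusted p under 0.05. The smallest adjusted p were 0.0691 for NOP14, a small-subunit processome protein, at -0.15 (95% interval from -0.25 to -0.06) and 0.0783 for DDX21 at 0.11 (from 0.04 to 0.19). The trend and robust fit called 2 members, and 1 was called without 4OHT replicate A and 1 without ICI replicate D. RRS1 had an interval from 0.02 to 0.17 and NOP16 one from -0.12 to 0.09. MYC was higher with 4OHT by 0.34 ± 0.04 (adjusted p = 6.33e-06).

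In the presence of E2, a comparison added after the values were seen, 4OHT+E2 exceeded ICI+E2 in PEO4 for RRP12 (0.43 ± 0.07, adjusted p = 0.000109) and NOP16 (0.28 ± 0.05, adjusted p = 0.00169), the 2 of 33 called, while 3.01% of all genes were higher and 1.44% lower. In the mean of its probe sets RRP12 was not called, at 0.16. The PEO4 count was 8 with array weights and 5 without the 2 arrays of low RNA quality. In PEO1 0 of 33 were called, against 4.19% of all genes called either way, with 7 at an unadjusted p under 0.05. There 3 were called without 4OHT+E2 replicate C, 1 without ICI+E2 replicate D, 1 with dim genes left out, 1 with array weights and 2 with the RNA quality covariate. The PEO4 4OHT against ICI count was 0 without any of 4OHT replicates 1, 2 or 3 or ICI replicate 3, 1 without 4OHT replicate 4 or ICI replicate 1, and 4 without ICI replicate 2. ACTB 3′ minus 5′ was 0.47 to 0.65 in PEO4 4OHT cells and 0.52 to 3.41 in PEO4 ICI cells, and with that measure as a covariate 2 were called, and without the 2 arrays of low RNA quality 1 was.

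The 3 h with vehicle were themselves accompanied by a rise of some of these genes, more of them in PEO1 than in PEO4. In PEO1 11 of 33 members were higher in vehicle cells than in 0 h cells and 0 lower, while 5.79% of all genes were higher and 1.64% lower. The members' median was 0.13, against 0.02 for all genes, and 32 of 33 were above 0, against 58.7% of all genes. With dim genes left out, the all-gene median was 0.03 and the share above 0 was 64.4%. RRS1 was at 11.59 to 11.67 in vehicle cells, against 11.39, 11.44, 11.45 and 11.48 in 0 h cells (0.19 ± 0.03, adjusted p = 0.001). NOP2 rose by 0.23 ± 0.04 (adjusted p = 0.00181), RCL1 by 0.18 ± 0.04 (adjusted p = 0.00334), BYSL by 0.26 ± 0.06 (adjusted p = 0.00461) and POLR1C by 0.26 ± 0.06 (adjusted p = 0.00576). WDR12 rose by 0.16 ± 0.04 (adjusted p = 0.00634), NOP16 by 0.22 ± 0.05 (adjusted p = 0.0078) and WDR43, a processome protein, by 0.26 ± 0.07 (adjusted p = 0.014). MYC was higher by 0.28 ± 0.04 (adjusted p = 4.38e-05).

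In PEO4 4 of 33 were higher in vehicle than in 0 h cells and 0 lower, while 3.74% of all genes were higher and 2.57% lower. The members' median was 0.07, against -0.02 for all genes. Of the 33, 21 were above 0 and 12 below, against 41.0% of all genes above 0. RRS1 was at 11.87 to 12.01 in vehicle cells, against 11.69, 11.70, 11.73 and 11.74 in 0 h cells (0.24 ± 0.04, adjusted p = 0.000595). BYSL rose by 0.31 ± 0.06 (adjusted p = 0.00113), RCL1 by 0.29 ± 0.06 (adjusted p = 0.00286) and DDX21 by 0.20 ± 0.05 (adjusted p = 0.00547). MYC rose by 0.32 ± 0.10 (adjusted p = 0.0471), a call lost in 8 of 17 alternatives, among them without any 1 of the 4 vehicle arrays or without 0 h replicate 1, 2 or 4. ACTB 3′ minus 5′ was 0.24 to 0.57 in PEO4 vehicle cells and 0.50 to 2.28 in 0 h cells, and without the 2 arrays of low RNA quality 7 members were called. Vehicle and 0 h cells differ in handling and time as well as in ethanol, which this design cannot tell apart.

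The members' highest and lowest groups were counted over the 7 groups of each line. In PEO4 the highest group mean was that of E2 cells for 16 of 33 members, of ICI cells for 6 and of 4OHT+E2 cells for 6, and the lowest was that of 0 h cells for 21. In PEO1 the highest was that of E2 cells for 25 members and the lowest that of 0 h cells for 24. The distance from the lowest to the highest group mean had a median of 0.27 in PEO4 and 0.25 in PEO1. It was largest in PEO4 for NIP7, RRP12 and RRS1, at 0.64 each, while MYC spanned 1.28 in PEO4 and 0.71 in PEO1. In the 14 within-line comparisons planned, 12 members were never called: FBL, GAR1, NCL, NOP14, NPM1, PES1, PNO1, PWP1, RRP1B, RRP9, TBL3 and UTP20. None of these counts was made over all genes, so they describe the members alone.

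MYC and the members were set side by side array by array, each member being taken as its deviation from its own mean over the line. In PEO4 the median deviation was 0.06 to 0.12 in E2 cells, 0.02 to 0.12 in 4OHT+E2 cells, 0.02 to 0.05 in 4OHT cells, -0.04 to 0.02 in ICI+E2 cells, -0.08 to 0.04 in ICI cells, -0.09 to -0.02 in vehicle cells and -0.15 to -0.09 in 0 h cells. MYC did not fully keep this order: its mean was 11.73 both in 4OHT+E2 and in 4OHT cells. It was 11.02 ± 0.33 in ICI cells against 11.20 ± 0.04 in vehicle cells (SD, n = 4 each), a difference that was not called. The low ICI mean rests on replicate 1, of low RNA quality, at 10.54, while the other ICI arrays lay at 11.10 to 11.25. In PEO1 the median deviation was 0.06 to 0.14 in E2 cells, 0.03 to 0.07 in ICI+E2 cells and -0.03 to 0.03 in ICI cells. It was -0.02 to 0.04 in vehicle cells and -0.14 to -0.09 in 0 h cells. In 4OHT+E2 cells it was -0.04 to 0.03, with a MYC mean of 12.08. In 4OHT cells it was -0.08 to 0.0, with a MYC mean of 12.09. PEO1 ICI cells had the lowest MYC of that line, with a mean of 11.76 ± 0.07 (SD, n = 4) against 11.96 ± 0.02 in 0 h cells. Their members lay at the level of vehicle cells and above every 0 h array. Whether MYC acts on these genes in these cells was not tested, and MYC protein was not measured. The groups form separate clusters, so no pooled correlation is given.

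**Figure D4:**
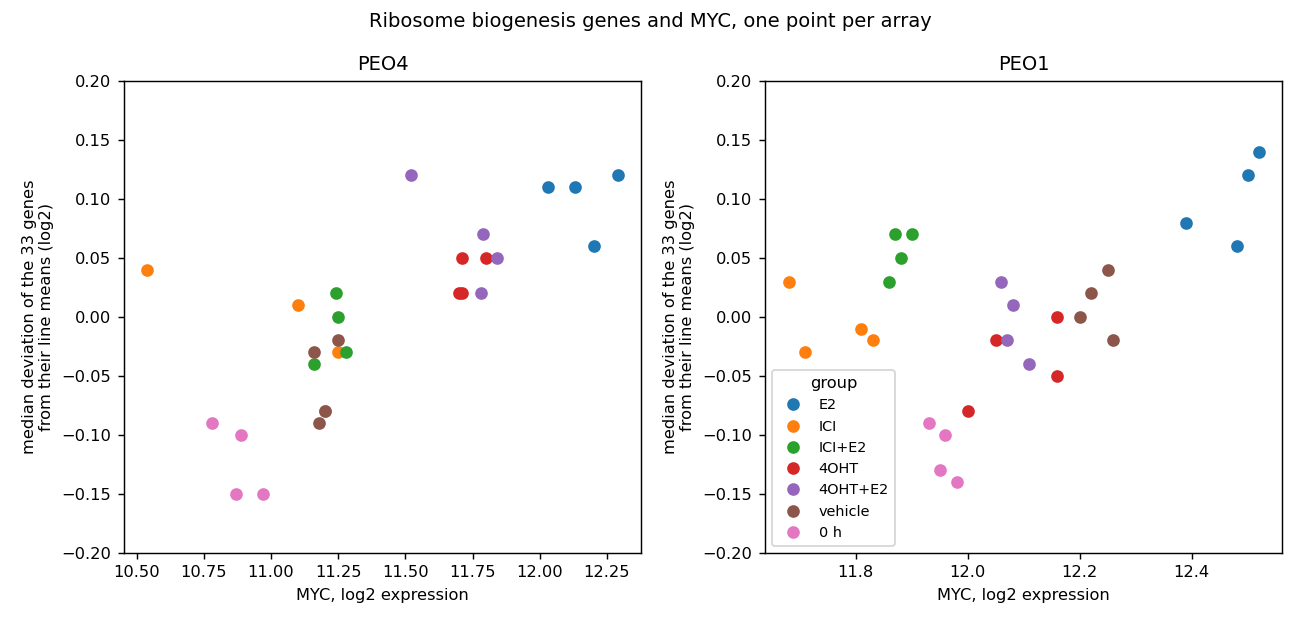
Each point is an array of PEO4 (left) or PEO1 (right), with the log2 level of MYC on the horizontal axis and the median deviation of the 33 members from their line means on the vertical axis, coloured by group. In PEO1 the ICI and ICI+E2 arrays lie at low MYC, 11.68 to 11.90, without the low member values of the 0 h arrays.

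Other genes of ribosome production, came from 5 lists with 120 of 149 genes measured. With E2, 6 of 120 rose in PEO4 (5%) and 9 of 120 in PEO1 (7.5%), with 0 lower in either line and a median difference of 0.06 in each. Of all genes, 1.66% rose and 0.46% fell in PEO4, and 1.56% rose and 0.527% fell in PEO1. POLR1E, a polymerase I subunit, rose by 0.37 ± 0.05 in PEO4 (adjusted p = 4.05e-05) and by 0.24 ± 0.05 in PEO1 (adjusted p = 0.00207). UTP25 rose by 0.44 ± 0.08 in PEO4 (adjusted p = 0.000647). MPHOSPH10, a processome protein, rose by 0.23 ± 0.04 in PEO1 (adjusted p = 0.000203), and MDN1, a large-subunit remodelling ATPase, by 0.30 ± 0.05 (adjusted p = 0.000704). MAK16, a large-subunit factor, rose by 0.25 ± 0.04 in PEO4 (adjusted p = 0.000629) and by 0.19 ± 0.04 in PEO1 (adjusted p = 0.00726). With 4OHT+E2 against E2 in PEO1, 32 of 120 fell (26.7%) and 0 rose, while 8.48% of all genes fell.

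Ribosomal proteins, the structural parts of the ribosome, were also counted. Of 51 measured, 0 were called with E2 in PEO4 and 0 in PEO1 by limma. Their differences were above 0 for 29 of 51 in PEO4 and 25 in PEO1. Among all genes 1.66% rose and 0.46% fell with E2 in PEO4, and 1.56% rose and 0.527% fell in PEO1. At these shares 0 calls among 51 do not set ribosomal proteins apart. With 4OHT in PEO1 2 ribosomal proteins fell, where 4.83% of all genes fell. These were RPL10A by 0.14 ± 0.04 on the log2 scale (adjusted p = 0.0166) and RPL36 by 0.18 ± 0.05 (adjusted p = 0.0258). Of 22 other known MYC targets outside the nucleolus, PPAT, an enzyme of purine synthesis, was the only one called with E2 in either line, at 0.33 ± 0.05 in PEO4 (adjusted p = 0.000127) and 0.22 ± 0.04 in PEO1 (adjusted p = 0.000603). Beside this 1 of 22, 1.66% of all genes rose with E2 in PEO4 and 1.56% in PEO1. Of 11 genes of the MYC network, 1 rose and 2 fell with 4OHT in PEO4, while 2.78% of all genes rose and 2.75% fell. In PEO1 1 rose and 1 fell, against 1.92% and 4.83% of all genes. MNT, a repressor that competes with MYC for MAX, rose by 0.40 ± 0.08 in PEO4 (adjusted p = 0.00386) and by 0.35 ± 0.06 in PEO1 (adjusted p = 0.000187). MXD3 changed by -0.36 ± 0.06 (adjusted p = 0.000189) and MYCL by -0.21 ± 0.06 (adjusted p = 0.0492) in PEO4, and MGA by -0.21 ± 0.05 in PEO1 (adjusted p = 0.0121). With E2 MNT rose in PEO4 by 0.41 ± 0.08 (adjusted p = 0.0038), the 1 of 11 called there, while 1.66% of all genes rose.

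**Figure D5:**
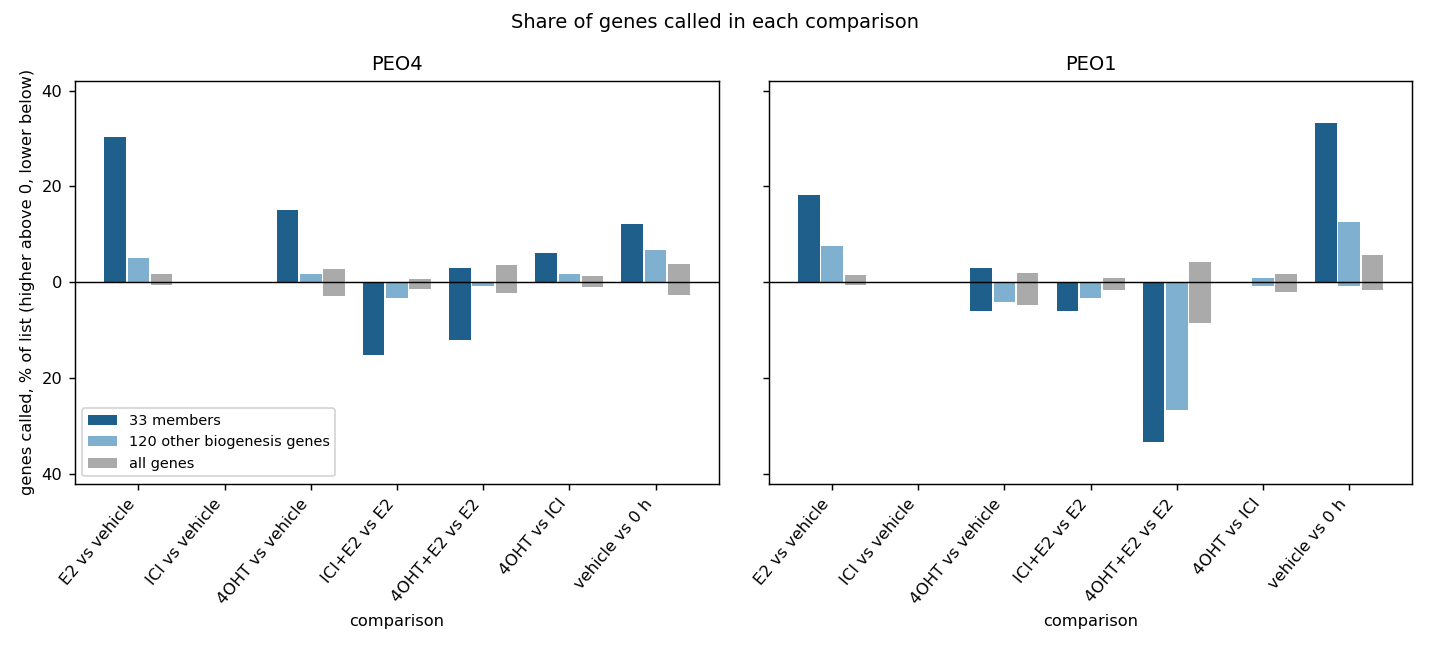
Bars give the share of the 33 members, of 120 other ribosome biogenesis genes and of all 11963 genes called higher (above 0) or lower (below 0) in each comparison, in PEO4 and PEO1. Member bars reach 33.3% in PEO1 for 4OHT+E2 against E2 and for vehicle against 0 h, and 30.3% in PEO4 for E2 against vehicle.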

How the data were processed

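RNA of 56 samples of the PEO4 and PEO1 lines was measured on Affymetrix expression arrays. The authors deposited log2 expression values, made with RMA per the submitters' processing notes, whose version is not given in the sources used here. Values ran from 2.18 to 14.33. Array medians were 7.851 to 7.916 in PEO4 and 7.409 to 7.49 in PEO1, so each line was treated as its own normalization, on which the labels are silent. Levels were therefore not compared between lines. RMA values carry no detection calls, and scanner files were not analysed here. The number of arrays, 4 per group, limits the precision.

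Of 22277 probe sets, 62 controls were used only as checks. In GEO's platform annotation 19064 had 1 gene symbol, 1043 several and 2108 none, and 19052 were matched to RefSeq genes. Keeping the probe set with the highest mean left 11963 genes, 4310 of which had more than 1. Where a called member had further probe sets (19 calls, 36 further probe sets), these were checked: 26 had the same sign, 11 the same call and 0 the opposite call. Differences were tested by fitting a mean for each group to the 28 arrays of a line (limma 3.58.1, R 4.3.3), while differences between lines used all 56. The median standard error of a difference came to 0.071 in PEO4 and 0.063 in PEO1. The test was tried on simulated data.

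The members, role groups, gene lists and naming rule were chosen with earlier results of these data known, so no p-value is given for a list. In each comparison up to 8 called members of smallest adjusted p are named, or 2 where none was called, beside MYC and RRS1, NOP16, POLR1B, NCL, NPM1 and FBL, and up to 4 called genes of other lists. The alternatives were a trend and robust variance, dim genes (lowest 40%) left out, the mean of all probe sets, quantile normalization, a replicate block, weighting of arrays, fits of just the groups compared, the removal of both arrays of low RNA quality, and leaving out each array. The RNA quality covariate was added after the data were seen. Replicate labels were checked for pairing: the deviations of arrays with the same label correlated between -0.36 and 0.33 in PEO4, over 0.1 in 9 of 36 pairs, and between -0.4 and 0.34 in PEO1, over 0.1 in 14 of 36. Only in PEO4 4OHT+E2 against ICI+E2 were all 4 pairs over 0.1, from 0.12 to 0.33.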

Additional observations from a re-analysis of the deposited data

Results flagged for a closer look

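Single arrays stood apart from the other 3 of their group in 8 of 98 group tests of 7 genes, by a gap beyond Dixon's 95% limit for groups of 4, where chance gives about 1 in 20. In PEO4 the arrays were POLR1B in E2 cells at 8.82, against at most 8.70 in the other arrays, FBL in 4OHT+E2 cells at 12.37, against at most 12.21, MYC in 4OHT cells at 11.80, against at most 11.71, and NOP16 in vehicle cells at 11.21, against at least 11.29. In PEO1 they were RRS1 in ICI cells at 11.50, against at least 11.55, NCL in 4OHT cells at 12.57, against at least 12.69, FBL in ICI+E2 cells at 12.18, against at most 12.14, and NOP16 in vehicle cells at 11.53, against at least 11.66.

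Responses that differed between the lines in limma's test of the difference itself were larger in PEO4 than in PEO1 for all 7 results. With E2 these were MYC by 0.73 ± 0.11 (adjusted p = 3.55e-05) and RRS1 by 0.22 ± 0.05 (adjusted p = 0.0328). With 4OHT they were MYC by 0.67 ± 0.11 (adjusted p = 0.00012), BYSL by 0.38 ± 0.08 (adjusted p = 0.0104), NOP16 by 0.32 ± 0.07 (adjusted p = 0.0152), WDR3 by 0.28 ± 0.07 (adjusted p = 0.0229) and NOP2 by 0.36 ± 0.09 (adjusted p = 0.031).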

How the results depend on the processing

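Of 89 called gene results, 40 were called under every alternative tried, 0 reversed, and the call was lost in 246 of 1525 tries. For the planned comparisons, the count of called members is given by setting where it moved by over 1.5 times, and the cause was not tested unless the setting leaves fewer arrays or genes in the fit. Fitting only the compared groups, which leaves fewer arrays, gave 0 for E2 against vehicle, 0 for 4OHT against vehicle, 1 for ICI+E2 against E2 and 3 for 4OHT+E2 against E2 in PEO1, 3 for 4OHT+E2 against E2 and 0 for 4OHT against ICI in PEO4, and 0 for the E2 response between lines. Array weights gave 5 for ICI+E2 against E2 and 1 for 4OHT against ICI in PEO1. In PEO4 they gave 4 for ICI and 10 for 4OHT against vehicle, 11 for ICI+E2 against E2, 11 for 4OHT against ICI and 9 for vehicle against 0 h, and between lines 2 for E2 and 1 for ICI. Quantile normalization gave 3 for E2, 1 for 4OHT against vehicle, 6 for 4OHT+E2 against E2 and 2 for 4OHT against ICI in PEO1, and 2 for E2 and 2 for 4OHT between lines. The PEO1 medians were then -0.02 for 4OHT against vehicle, -0.08 for 4OHT+E2 against E2, 0.01 for 4OHT against ICI and 0.09 for vehicle against 0 h. Leaving out dim genes gave 4 for ICI+E2 against E2 and 2 for 4OHT against ICI in PEO1, where a trend and robust variance gave 5 and 2. The mean of all probe sets gave 1 for 4OHT against ICI in PEO4. With the RNA quality covariate the counts were 0 for 4OHT against vehicle in PEO1, and 10 for 4OHT against vehicle, 8 for ICI+E2 against E2 and 7 for vehicle against 0 h in PEO4. The medians were then 0.01 for ICI against vehicle, 0.08 for 4OHT against ICI and 0.10 for vehicle against 0 h in PEO4, and 0.04 for ICI between lines. Without the 2 arrays of low RNA quality the PEO4 counts were 9 for 4OHT against vehicle, 1 for 4OHT against ICI and 7 for vehicle against 0 h, and the ICI median between lines was 0.03.

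With 1 array left out, the counts in PEO4 ran from 6 to 9 for E2, 0 to 2 for ICI and 3 to 5 for 4OHT against vehicle, 3 to 5 for 4OHT+E2 against E2 and 0 to 4 for 4OHT against ICI. In PEO1 they ran from 2 to 6 for E2, 0 to 3 for 4OHT against vehicle, 1 to 3 for ICI+E2 against E2, 5 to 12 for 4OHT+E2 against E2 and 0 to 1 for 4OHT against ICI. Between lines they ran from 0 to 1 for E2 and 1 to 4 for 4OHT. The single calls lost without at least 1 array were, in PEO4, DDX21, NIP7, POLR3G and URB2 for E2, DDX21 and WDR3 for 4OHT against vehicle, POLR1C for ICI+E2 against E2, NIP7 and WDR12 for 4OHT+E2 against E2, DDX21 and RRP12 for 4OHT against ICI and MYC for vehicle against 0 h. In PEO1 they were DDX10, POLR1B, POLR3G and WDR3 for E2, DDX21, NAT10, NHP2 and MYC for 4OHT against vehicle, RRS1 for ICI+E2 against E2, DDX10, NAT10, NOP16, POLR1C, RCL1 and WDR12 for 4OHT+E2 against E2, and MRTO4, NOLC1, TSR1 and WDR43 for vehicle against 0 h. Between lines they were RRS1 for E2 and NOP16, NOP2 and WDR3 for 4OHT. The ICI median ran from 0.03 to 0.10 in PEO4 and from 0.03 to 0.11 between lines.

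With the replicate label as a block, 1 member was called for 4OHT against vehicle in PEO1, 4 for E2 against vehicle in PEO1, 9 for E2 against vehicle in PEO4 and 5 for vehicle against 0 h in PEO4, and the other member counts were as without the block. The labels did not pair the arrays in either line as a whole.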
